A study of Mus musculus with 6 samples.

Results

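Peroxisome biogenesis and peroxisomal oxidation were followed in mouse back skin through 31 listed genes. Of these, 14 are Pex genes, which build the organelle, and 17 are enzymes and transporters that work in it or with it. The list was chosen with the response of these arrays already known. The differences and counts given for the listed genes therefore describe these arrays and test nothing. A listed gene was found by its name in the arrays' own annotation: 30 of the 31 names were present, with 47 of the 41115 probes kept, among 27343 gene names. Pex11g was the name not found. Pex11c, which was found, is listed by RefSeq as an older name of that gene, so that 13 Pex genes and 17 enzymes and transporters were measured.

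The skin came from female C57BL/6J mice of 6 to 8 weeks, for which the labels name no altered allele. The shaved back received 62.5 mg of cream a day for 7 days. The cream held 5% imiquimod, an agonist of Toll-like receptor 7 used to produce a psoriasis-like dermatitis, in 3 samples, and it was the vehicle cream in the other 3. Total RNA of whole skin, with all its cell types, was labelled with Cy3 and hybridised to Agilent one-colour arrays; no label says that the samples of a group came from separate animals, so that p-values measure the spread between samples, which may be technical. All 6 scanner files are attached to a sample whose title gives the other cream. Every column of the deposited value table, read by its sample's title, matched the scanner file whose own name gives the same cream and number, with a Spearman correlation of at least 0.99999973 over 24253 probes. Each array was put to the sample whose column holds its values. Read as attached, every difference below would turn its sign and keep its size.

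Values are log2 signals relative to the 75th percentile of the same array, and differences are imiquimod minus vehicle with the SE of the limma fit (n = 3 and 3). A gene passed when its Benjamini-Hochberg adjusted p was under 0.05 over the 17784 genes tested. The 75th percentile lay between 861 and 1106 intensity units, and 61.2% to 67.4% of probes were well above background. Of the 9 tested genes of an imiquimod response list (keratin, S100 and cytokine genes), 9 rose, among them Krt6b by 5.41 ± 0.33 (SE; limma adjusted p = 0.00143). The 6 arrays lay on 2 slides: vehicle 1, 2 and 3 and imiquimod 1 shared one, and imiquimod 2 and 3 shared the other.

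Peroxisomes are single-membrane organelles that shorten very long and branched fatty acids, break down hydrogen peroxide and carry out the first steps of ether lipid synthesis. Peroxins, encoded by the Pex genes, insert the membrane proteins, import the folded matrix enzymes and divide the organelle. In skin, sebaceous glands are rich in peroxisomes, and the lipids of the sebum and of the epidermal barrier draw on fatty acids and ether lipids of the kinds that peroxisomes handle.

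The start regions of the genes that were lowest in imiquimod are shown first, since these genes carry most of what follows. Of 7 listed genes at least 2-fold lower in imiquimod, a cutoff set after the values were seen, 6 had an entry in the RefSeq promoter table (GRCm38.p6); Crat is named only. The 250 bases before the annotated start are printed 5′ to 3′ on the gene's strand. Capitals mark AGGTCA, the half-site of nuclear receptors such as PPARalpha, CCAAT, or GGGCGG, the GC box, each searched on both strands.
Acox2, chr14:8258840-8259089, minus strand: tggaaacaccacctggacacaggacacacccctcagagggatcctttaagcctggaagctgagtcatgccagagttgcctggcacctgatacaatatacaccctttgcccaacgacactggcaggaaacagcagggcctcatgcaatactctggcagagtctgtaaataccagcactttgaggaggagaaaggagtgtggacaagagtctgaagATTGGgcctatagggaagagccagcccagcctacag
Acox3, chr5:35582784-35583033, plus strand: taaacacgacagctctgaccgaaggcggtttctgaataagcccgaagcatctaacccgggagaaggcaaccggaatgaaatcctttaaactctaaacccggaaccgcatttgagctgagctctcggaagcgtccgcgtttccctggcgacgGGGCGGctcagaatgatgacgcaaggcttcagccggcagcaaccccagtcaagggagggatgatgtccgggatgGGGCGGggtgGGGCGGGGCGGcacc
Ehhadh, chr16:21787835-21788084, minus strand: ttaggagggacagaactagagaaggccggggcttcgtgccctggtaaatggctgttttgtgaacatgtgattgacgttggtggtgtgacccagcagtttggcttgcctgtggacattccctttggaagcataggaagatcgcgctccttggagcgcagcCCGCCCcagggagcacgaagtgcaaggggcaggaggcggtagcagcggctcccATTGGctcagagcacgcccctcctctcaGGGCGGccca
Pex11a, chr7:79743132-79743381, minus strand: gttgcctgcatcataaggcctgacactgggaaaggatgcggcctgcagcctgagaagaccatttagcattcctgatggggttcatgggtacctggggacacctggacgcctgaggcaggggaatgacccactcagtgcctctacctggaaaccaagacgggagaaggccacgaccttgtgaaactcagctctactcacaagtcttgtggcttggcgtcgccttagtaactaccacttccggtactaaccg
Pex11c (RefSeq Pex11g), chr8:3467649-3467898, minus strand: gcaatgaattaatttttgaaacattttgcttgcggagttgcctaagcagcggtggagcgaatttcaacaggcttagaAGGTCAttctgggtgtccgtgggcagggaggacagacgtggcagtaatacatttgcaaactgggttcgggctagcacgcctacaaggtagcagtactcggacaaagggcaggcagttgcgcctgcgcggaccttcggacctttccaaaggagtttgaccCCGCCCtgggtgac
Pex3, chr10:13553143-13553392, minus strand: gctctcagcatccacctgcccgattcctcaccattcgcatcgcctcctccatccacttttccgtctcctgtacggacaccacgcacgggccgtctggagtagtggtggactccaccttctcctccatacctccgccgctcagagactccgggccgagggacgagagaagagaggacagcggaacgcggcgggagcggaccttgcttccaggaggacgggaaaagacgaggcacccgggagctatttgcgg

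These 6 sequences had little in common by the letters searched. The GC box was found in Acox3, Ehhadh and Pex11c, with 4 matches within 99 bases of the start of Acox3. CCAAT lay 36 bases before the start of Acox2 and 38 bases before that of Ehhadh, and the half-site lay 173 bases before that of Pex11c. Pex11a and Pex3 held none of the 3. A second RefSeq start of Acox2 held none either.

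Over all listed genes, 23 matched the table, with 28 promoters among 32841. GGGCGG was found for 15 of the 23 genes, against 32.8% of all promoters; CCAAT was found for 9, against 33.9%; and AGGTCA was found for 3 (Cat, Pex11c and Scp2), against 14.0%. The DR1 element bound by PPAR and RXR, searched as an exact direct repeat of AGGTCA with 1 base of any kind between the copies, and so holding that half-site, was in none of the 28 promoters and in 0.0335% of all. CACGTG was found for Gnpat alone of the 23 and in 6.02% of all promoters, TGACGTCA for Pex13 alone and in 1.55%, and TATAAA for Pex14, Pex16 and Pex26 and in 12.4%. The listed genes' promoters had a median of 11.5 CpG and 58.8% G+C in 250 bases, and all promoters had 6 and 52.4%. These are counts of letters in a window, a gene with several starts has more windows, and a missing match says nothing about the factor.

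All 30 genes were well above background on all 6 arrays and none was saturated, so that every one was tested. In the fit over all genes, 9 of the 30 passed as lower in imiquimod and 0 as higher (limma), where 10.5% of all genes tested passed as lower and 13.1% as higher. At an unadjusted p under 0.05, 16 were lower and 1 was higher, where the shares of all genes were 17.7% and 21.3%. The difference lay below 0 for 24 genes and above it for 6, with a median of -0.40 against 0.023 over all genes. In 16 genes all 3 imiquimod arrays lay below all 3 vehicle arrays and in 2 all lay above, where the share of all genes was 20.7% and 25.9%. The genes that passed were Pex3, Pex6, Pex11a, Pex11c, Abcd3, Acox2, Acox3, Ehhadh and Crat. In bulk tissue, fewer cells of a type cannot be told apart from less RNA per cell.

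**Figure D1:**
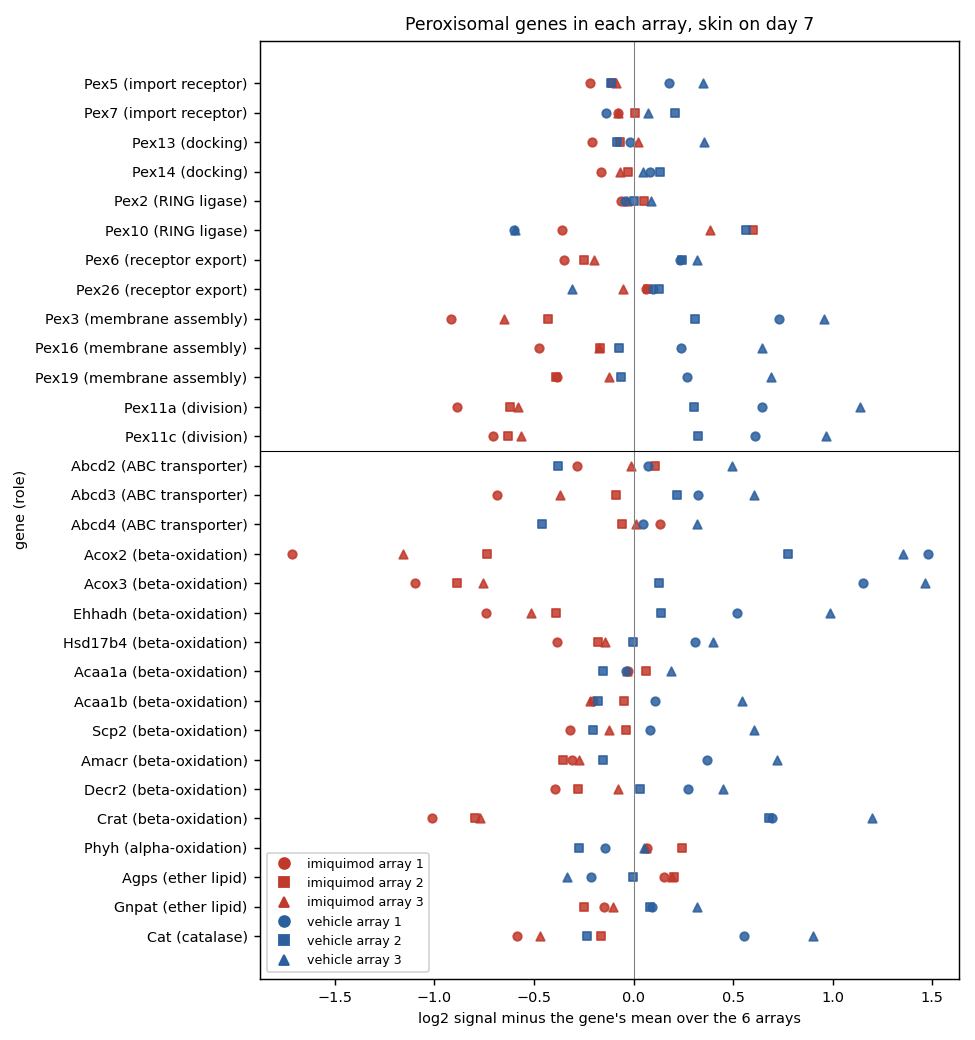
Log2 signal of each of the 30 genes in each array, minus the gene's mean over the 6 arrays (x axis), with Pex genes above the line and enzymes and transporters below it; red marks imiquimod, blue vehicle, and the symbol shape the replicate. The red and blue points are clear of each other for Pex3, Pex11a, Pex11c, Acox2, Acox3, Ehhadh and Crat, and they mix for most import factors and for Abcd2, Abcd4, Acaa1a and Cat.

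The Pex genes differed by the step they serve. Those of membrane assembly and division were lower in imiquimod, while most of those of matrix import lay close to 0. Pex3 is the membrane anchor that receives new peroxisomal membrane proteins. Its log2 signal was -0.77, -0.28 and -0.50 in imiquimod arrays 1, 2 and 3 and 0.88, 0.46 and 1.11 in vehicle arrays 1, 2 and 3. The groups were well separated, by a difference of -1.33 ± 0.21, or 2.52-fold lower. The probe lies at chr10:13244460-13244519 in NCBI37 (mm9), the build of the arrays' annotation.

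Pex19, the cytosolic chaperone that delivers membrane proteins to Pex3, was at 0.28, 0.28 and 0.54 with imiquimod and at 0.94, 0.61 and 1.36 with vehicle. For Pex16, which helps to place Pex3 in the membrane, the imiquimod arrays gave 1.70, 2.01 and 2.00 and the vehicle arrays 2.41, 2.10 and 2.82. Neither gene's groups overlapped, but vehicle 2 lay close above the highest imiquimod array in both. The differences, -0.60 ± 0.21 for Pex19 and -0.54 ± 0.21 for Pex16, did not pass.

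Pex11 proteins elongate the peroxisomal membrane before the organelle divides. Pex11a was at 1.89, 2.15 and 2.19 in the imiquimod arrays and at 3.41, 3.07 and 3.91 in the vehicle arrays (chr7:86882223-86882282), a difference of -1.39 ± 0.23, or 2.62-fold lower. Pex11c gave 1.81, 1.89 and 1.95 against 3.13, 2.84 and 3.48 (chr8:3458831-3458890), with a difference of -1.27 ± 0.18, or 2.41-fold lower. In both genes the imiquimod arrays lay within a narrow band and the vehicle arrays spread more widely, with vehicle 2 the lowest of them.

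Matrix import begins with receptors that carry enzymes to the organelle. Pex5 recognises the C-terminal signal of most matrix enzymes; it measured 0.36, 0.47 and 0.49 with imiquimod and 0.76, 0.47 and 0.93 with vehicle, a difference of -0.28 ± 0.15. Pex7, the receptor for the N-terminal signal, measured 2.12, 2.21 and 2.12 against 2.06, 2.41 and 2.27, a difference of -0.097 ± 0.12. The groups overlapped for both receptors. At the docking complex, Pex13 differed by -0.17 ± 0.15 with overlap. Pex14, its partner, differed by about as much, -0.17 ± 0.098, with all imiquimod arrays (-0.63, -0.49 and -0.53) below all vehicle arrays (-0.38, -0.33 and -0.42).

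Pex2 and Pex10 are RING-type ubiquitin ligases that mark the receptor for export. Pex2 differed by -0.029 ± 0.10. Pex10 varied most within the groups, at -2.53, -1.57 and -1.78 with imiquimod and -2.77, -1.61 and -2.77 with vehicle, and its difference was 0.42 ± 0.41. Pex6, an ATPase that pulls the marked receptor out of the membrane, stood apart from these. It was at 1.64, 1.74 and 1.79 in the imiquimod arrays and at 2.22, 2.23 and 2.30 in the vehicle arrays (chr17:46861840-46861899). Its difference was small, -0.53 ± 0.099 or 1.44-fold lower, and passed because the arrays of each group lay close together. Pex26, the anchor of the Pex6 complex on the membrane, differed by 0.055 ± 0.15.

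The enzymes and transporters also held both low and level genes. ABC transporters of the D subfamily bring fatty acyl-CoA into the peroxisome. Abcd3, which carries long and branched-chain acyl-CoA and bile acid precursors, was at 3.33, 3.92 and 3.64 with imiquimod and 4.33, 4.23 and 4.61 with vehicle (chr3:121461892-121461951). The difference was -0.76 ± 0.19, or 1.70-fold lower. Abcd2, a transporter of very long chain acyl-CoA, differed by -0.13 ± 0.24, and Abcd4, which resides in lysosomes and serves cobalamin transport, by 0.060 ± 0.21; both overlapped.

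The first enzymes of peroxisomal beta-oxidation, the acyl-CoA oxidases, were furthest below vehicle. Acox2 oxidises branched-chain acyl-CoA and bile acid intermediates. It measured -2.21, -1.23 and -1.65 in the imiquimod arrays and 0.98, 0.28 and 0.86 in the vehicle arrays, and the difference of -2.41 ± 0.30 (5.30-fold lower) was the largest of the 30 genes. Its probe reaches from 9058288 to 9062677 on mm9 chromosome 14, a span far longer than the probe itself. Acox3, a second oxidase of branched-chain substrates, measured 1.22, 1.43 and 1.55 against 3.46, 2.44 and 3.78 (chr5:35956215-35956274), with a difference of -1.83 ± 0.35, or 3.55-fold lower. Here vehicle 2 stood between the imiquimod arrays and the other vehicle arrays.

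The next steps are served by multifunctional enzymes. Ehhadh, the L-bifunctional enzyme, was at -2.14, -1.79 and -1.91 with imiquimod and -0.88, -1.26 and -0.41 with vehicle (chr16:21761914-21761973), a difference of -1.09 ± 0.24, or 2.14-fold lower. Hsd17b4, the D-bifunctional enzyme for branched and very long chains, was at 3.54, 3.74 and 3.77 against 4.23, 3.91 and 4.32. The groups of Hsd17b4 did not overlap, yet its difference of -0.47 ± 0.15 did not pass. None of the thiolases that complete the cycle passed. Acaa1a gave 5.64, 5.72 and 5.63 against 5.62, 5.51 and 5.85, a difference of 0.0023 ± 0.12. Acaa1b differed by -0.31 ± 0.20 and Scp2, whose gene encodes a thiolase for branched chains and a sterol carrier protein, by -0.32 ± 0.22, each with overlap.

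Auxiliary enzymes prepare unusual substrates or remove the products. Crat, carnitine acetyltransferase, passes acetyl groups to carnitine for export and acts in mitochondria as well. It was at 2.27, 2.49 and 2.51 with imiquimod and at 3.98, 3.96 and 4.48 with vehicle (chr2:30257684-30257743). The difference of -1.72 ± 0.18, or 3.28-fold lower, was wide against the spread of either group. Amacr, the racemase for branched-chain acyl-CoA, differed by -0.63 ± 0.23, and Decr2, the reductase for unsaturated chains, by -0.50 ± 0.15. Neither overlapped and neither passed.

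Alpha-oxidation, ether lipid synthesis and peroxide removal gave a mixed picture. Phyh, the hydroxylase that starts the breakdown of phytanic acid, was at 2.84, 3.02 and 2.84 with imiquimod and 2.63, 2.50 and 2.83 with vehicle, a difference of 0.25 ± 0.13. Agps makes the ether bond of plasmalogens; it was at 1.98, 2.03 and 2.02 against 1.62, 1.83 and 1.49, a difference of 0.37 ± 0.12. These were the only 2 genes of the 30 with every imiquimod array above every vehicle array, and neither passed. Gnpat, which acts just before Agps in the same pathway, lay the other way, at 2.88, 2.78 and 2.93 against 3.12, 3.11 and 3.35. Its difference of -0.33 ± 0.12 did not pass. Cat, catalase, was at 1.52, 1.94 and 1.63 with imiquimod and 2.65, 1.87 and 3.00 with vehicle; vehicle 2 fell among the imiquimod arrays, and the difference of -0.81 ± 0.31 did not pass.

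**Figure D2:**
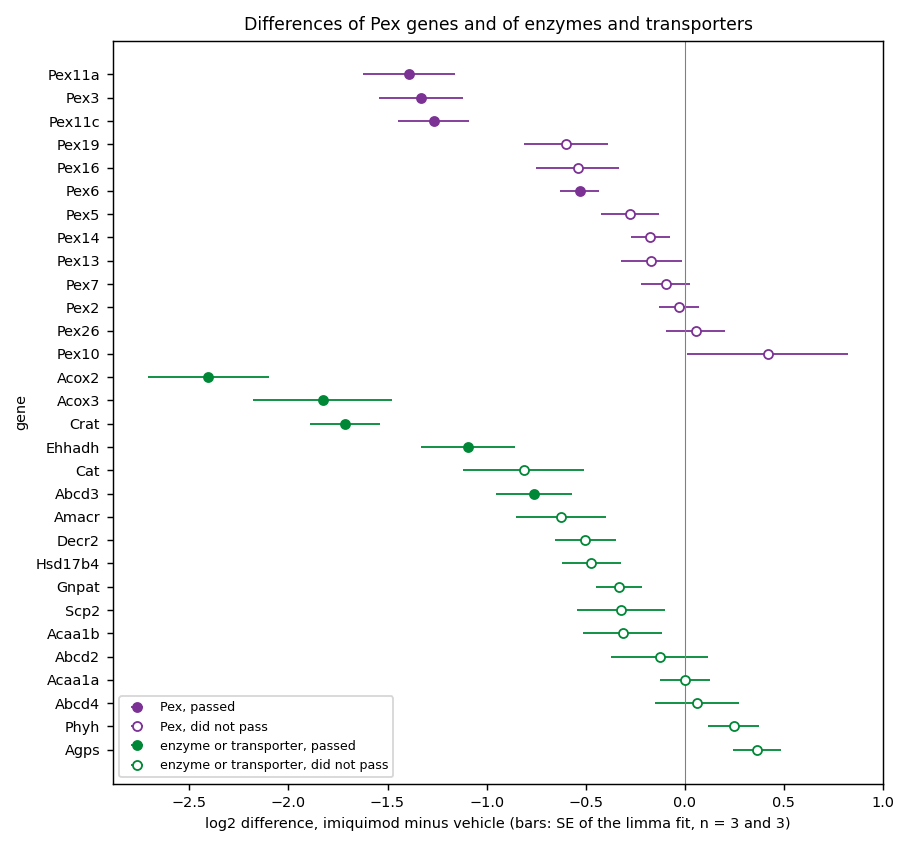
Imiquimod minus vehicle difference of each gene on the log2 scale (point) with its SE (bar), n = 3 and 3, for the Pex genes (purple) and the enzymes and transporters (green); filled points passed the limma test over all genes. Acox2 lies furthest left at -2.41, and Pex10 furthest right at 0.42 with the widest bar.

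Set side by side, the Pex genes and the enzymes and transporters had similar counts. Of the 13 Pex genes, 4 passed as lower, 7 had all imiquimod arrays below all vehicle arrays, and the median difference was -0.28. Of the 17 enzymes and transporters, 5 passed as lower, 9 had all imiquimod arrays below, and the median was -0.47. Of all genes tested, 10.5% passed as lower, and 20.7% had all imiquimod arrays below all vehicle arrays. None of either set passed as higher (limma), where 13.1% of all genes did. At an unadjusted p under 0.05, 6 Pex genes and 10 enzymes and transporters were lower, where the share of all genes was 17.7%. By the same measure 0 Pex genes and 1 enzyme were higher, against 21.3% of all genes. With vehicle 2 left out, the medians were -0.40 and -0.59. Whether the sets differ was not tested, because both were chosen on this contrast.

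Not all probes of a gene gave the same value. Of 11 genes with more than 1 tested probe, the sign was shared by all probes in 7 and differed in 4 (Pex2, Pex5, Pex13 and Acaa1a). The second tested Pex3 probe gave -1.02 ± 0.20, beside -1.33 for the brightest. The 3 Abcd3 probes gave -0.76, -0.62 and -0.60. In a limma fit over all tested probes their adjusted p was 0.0395, 0.0578 and 0.0547, so that only the brightest was under 0.05. Pex11c was the most uneven of the genes that passed: its brightest probe gave -1.27, another -0.85 ± 0.12, one lay above background in vehicle arrays only, and one annotated to a cDNA clone gave -0.081 ± 0.25. Among genes that did not pass, the Pex13 probes gave -0.17, -0.62 and 0.15.

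**Figure D3:**
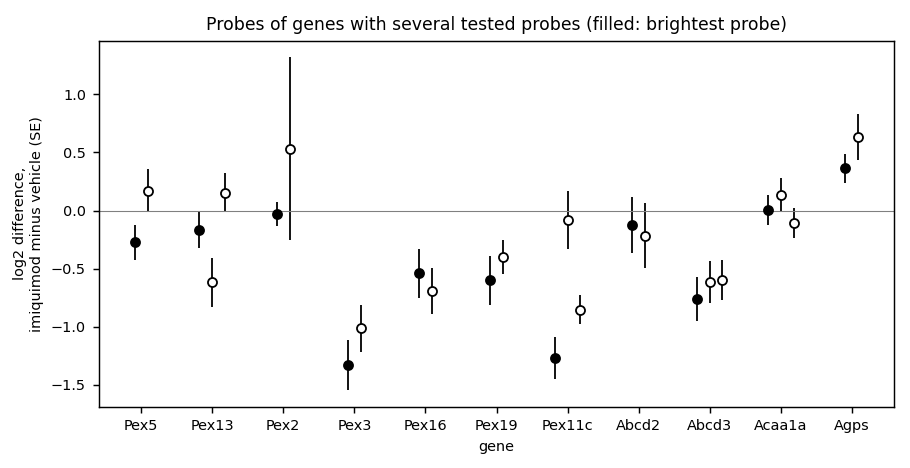
Imiquimod minus vehicle difference on the log2 scale with its SE for the tested probes of the 11 genes that have several; the filled point is the brightest probe, which stands for the gene elsewhere. The probes of Abcd3 lie together, and those of Pex11c spread from -1.27 to -0.081; a Pex11c probe above background on no imiquimod array is not drawn.

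The arrays of a group were also set against each other. These are the values from which the contrast itself is made, so that the order of the arrays is not independent of how the genes were chosen. Among the 3 vehicle arrays, vehicle 2 was the lowest in 23 of the 30 genes (76.7%, against 41.2% of all genes tested) and vehicle 3 was the highest in 24 (80.0%, against 45.5%). The split was uneven between the classes: vehicle 2 was lowest in 16 of the 17 enzymes and transporters and in 7 of the 13 Pex genes. Among the imiquimod arrays, array 1 was the lowest in 21 genes (70.0%, against 38.9%). The vehicle arrays varied more, with a median SD of 0.308 over the 30 genes against 0.122 for imiquimod; over all genes the medians were 0.235 and 0.147. Genes that vary together share arrays and are not independent, and no test was made of the order.

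How many of the 30 genes passed differed with the arrays used and with the slide in the fit. Without vehicle 2, 15 of the 30 genes passed as lower and 1, Agps, as higher, where 12.5% and 13.8% of all genes passed. Without imiquimod 1, 4 passed as lower (4.32% of all genes), without imiquimod 3, 5 (4.80%), and without vehicle 1, 5 (4.19%). With the slide as a block, 2 passed as lower, Acox2 and Crat (2.92% of all genes). Within the shared slide, imiquimod 1 against the 3 vehicle arrays, none did (limma), and of all genes 7 passed as higher and 1 as lower. The differences with that block were as large or larger: -2.92 for Acox2, -2.01 for Acox3, -1.87 for Crat, -1.58 for Pex3 and -1.58 for Pex11a. Within the shared slide the differences are the same numbers by construction.

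Other genes of the peroxisome were then examined, from a list sharing no gene with the 30. It was drawn up by function, but with earlier results of these data known. Of its 53 genes 43 were tested, and the median was -0.021. In the limma fit 11 fell (25.6%) and 3 rose (6.98%), where 10.5% of all genes tested fell and 13.1% rose. The genes that rose were Ide, a largely cytosolic protease with a peroxisomal targeting signal, by 1.09 ± 0.20 (adjusted p = 0.0165), Prdx5, a peroxiredoxin that removes peroxides, by 0.73 ± 0.13 (adjusted p = 0.0157), and Slc25a17, a carrier of CoA and adenine nucleotides in the peroxisomal membrane, by 0.43 ± 0.098 (adjusted p = 0.0276). None of these 3 passed with the slide as a block, where 0 rose and 5 fell, nor on leaving out vehicle 1. On leaving out imiquimod 1, 2 or 3 or vehicle 1 the number that fell was 6, and without vehicle 2 it was 17.

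Among those that fell, Pxmp4, a peroxisomal membrane protein, differed by -2.13 ± 0.28 (limma adjusted p = 0.00597). Far2, which reduces fatty acyl-CoA to the alcohols of wax and ether lipids and is strongly expressed in sebaceous glands, differed by -5.74 ± 0.79 (adjusted p = 0.00708), with 2 of 3 imiquimod arrays above background. Acot12, an acyl-CoA thioesterase, was above background on no imiquimod array and was at least 1.27-fold lower (adjusted p = 0.00321), a bound set by the dimmest probe above background on each array. Pxmp4, Far2 and Acot12 also passed with the slide as a block.

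Mitochondria run a parallel beta-oxidation with their own enzymes. Of 18 such genes, all tested, the median difference was -0.16. At an unadjusted p under 0.05, 4 were lower (22.2%) and 1 was higher, where the shares of all genes were 17.7% and 21.3%. In the limma fit 3 fell (16.7%) and 0 rose, where 10.5% of all genes tested fell and 13.1% rose. The 3 were Acaa2, the mitochondrial thiolase, by -0.55 ± 0.11 (adjusted p = 0.0191), Decr1, the mitochondrial counterpart of Decr2, by -1.15 ± 0.25 (adjusted p = 0.0258), and Eci1, an isomerase for unsaturated chains, by -0.71 ± 0.19 (adjusted p = 0.0464). With the slide as a block, or without imiquimod 1, imiquimod 2 or vehicle 1, 0 of the 18 passed (limma), and without imiquimod 3, 1 did.

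PPARalpha is the nuclear receptor that drives peroxisomal beta-oxidation genes in rodent liver. Its gene Ppara was at -2.75, -2.49 and -2.77 in the imiquimod arrays and at 0.63, -0.11 and 1.04 in the vehicle arrays. The difference of -3.19 ± 0.30 (limma adjusted p = 0.00265) was larger than that of any of the 30 genes. Of 12 receptors and cofactors of this family, 3 fell (Ppara, the coactivator Ppargc1a by -0.76 ± 0.15, adjusted p = 0.0196, and the coactivator Ncoa1 by -0.44 ± 0.11, adjusted p = 0.0327) and 1 rose. That was Ppard, another PPAR, above background on no vehicle array and at least 2.28-fold higher (adjusted p = 0.0107). Of 10 tested PPAR target genes outside the list, 3 fell and 1 rose, with a median of -0.93. Of all genes tested, 10.5% fell and 13.1% rose. Vnn1, a pantetheinase, differed by -2.30 ± 0.34 (adjusted p = 0.00862), Plin2, a lipid droplet coat protein, by -1.30 ± 0.23 (adjusted p = 0.0138) and Acot1, a cytosolic thioesterase, by -1.29 ± 0.26 (adjusted p = 0.0202), while Cyp4a10, a fatty acid hydroxylase, rose by 0.64 ± 0.14 (adjusted p = 0.0257). With the slide as a block Ppara, Vnn1 and Acot1 passed and the other 5 did not. Ppara passed on leaving out any 1 array, while 6 targets fell without vehicle 2, 2 without imiquimod 2 and 1 each without imiquimod 3 or vehicle 1; of the receptors and cofactors, only Ppara fell without imiquimod 1, imiquimod 2 or vehicle 1. Ncoa1 did not pass on leaving out any 1 of the 6 arrays.

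Markers of skin cell types moved between the groups as well, where 10.5% of all genes tested fell and 13.1% rose. Of 12 tested sebocyte markers, 8 fell, with a median of -2.22; the log2 of their summed signal was 6.80 to 7.38 in the imiquimod arrays and 8.27 to 8.69 in the vehicle arrays. Awat1 was not found by name, and Fads6 and Mc5r were too dim to be tested. Soat1, which esterifies cholesterol, differed by -2.13 ± 0.18 (limma adjusted p = 0.00222). Of 13 hair follicle markers, 9 fell, and their summed signal was 2.83 to 3.14 against 7.06 or more; Krt25 and Krt85 were above background on no imiquimod array. Adipocyte markers overlapped, at 7.94 to 8.37 against 8.00 to 9.11, and 1 of 9 fell (Lep, the gene of leptin, by -2.07 ± 0.26, adjusted p = 0.00549). Of 9 myeloid markers 8 rose (summed signal 8.26 to 8.53 against 6.43 to 7.55), of 8 fibroblast markers 6 (9.97 to 10.15 against 9.23 to 9.75) and of 8 interfollicular keratinocyte markers 5 (10.63 to 10.82 against 9.43 to 9.81). Of 8 skeletal muscle markers none passed (limma; 1 was lower at an unadjusted p under 0.05), at 8.75 to 9.54 against 8.98 to 10.31. With the slide as a block 7 sebocyte markers and 4 hair follicle markers fell, 2 keratinocyte markers and 1 fibroblast marker rose, and 0 adipocyte and 0 myeloid markers passed (limma). On leaving out imiquimod 1, 2 or 3 or vehicle 1, 2 to 3 markers passed in each of the myeloid, fibroblast and keratinocyte lists, and without vehicle 2, 3 adipocyte markers and 1 muscle marker fell. The part of any of these cell types in the differences of the 30 genes was not tested.

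**Figure D4:**
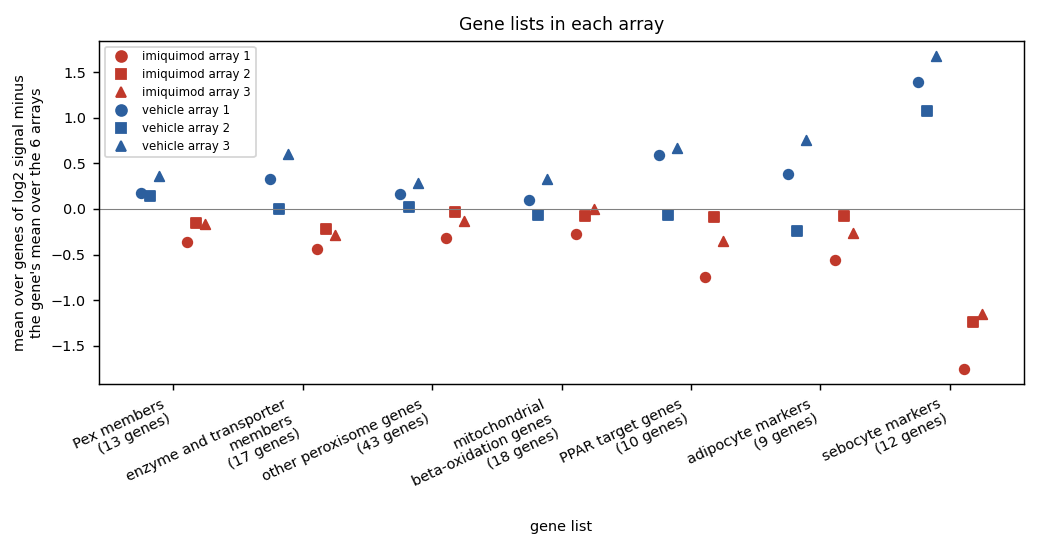
Mean over the genes of each list of the log2 signal minus the gene's mean over the 6 arrays, for each array; red marks imiquimod, blue vehicle, and the shape the replicate. All blue points lie above all red points for the Pex genes, the enzymes and transporters, the sebocyte markers and, narrowly, the other peroxisome genes. Vehicle 2 lies just above the highest imiquimod array for the PPAR targets and below it for the mitochondrial and adipocyte lists.

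Within the vehicle group the same array stood out in several lists. The mean over the 17 enzymes and transporters, each gene taken relative to its own mean, was 0.33, 0.00056 and 0.60 in vehicle arrays 1, 2 and 3. The adipocyte markers gave 0.38, -0.24 and 0.76, the PPAR targets 0.59, -0.07 and 0.67, and the sebocyte markers 1.39, 1.07 and 1.67. The Pex genes gave 0.18, 0.15 and 0.36. Vehicle 2 was thus the lowest vehicle array in each of these 5 lists, by the least in the Pex genes. It was also the lowest in the fibroblast (-0.27, -0.71 and -0.055), myeloid (-1.18, -1.37 and -0.53) and skeletal muscle markers (0.41, -0.50 and 0.85). In the imiquimod response genes it was the highest, with -4.17, -1.73 and -2.80, and in the hair follicle markers as well, with 4.05, 5.19 and 1.08. The interfollicular keratinocyte markers gave -0.69, -0.32 and -0.37, again with vehicle 2 the highest. Scanner quality reports asked for evaluation of vehicle 2 and vehicle 3, whose negative controls gave net signals of 40.9 and 45.2, where the other 4 arrays gave 31.7 to 37.6. The part of array quality in these values was not tested.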

How the data were processed

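Agilent one-colour arrays of 6 whole-skin RNA samples were used, 3 per group. The scanner files hold intensity values that the authors deposited unnormalized; per the file headers they were extracted with Feature Extraction 10.7.3.1, while the submitters' processing notes give 9.1. The deposited value table holds log2 values (slope 0.973 to 1.01 against the matched array's log2 signal, every column median 7.05); how it was normalized is not given in the sources used here. It served to identify the arrays and as an alternative.

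From the processed signal, log2 values were taken and each array's 75th percentile was subtracted. Control spots and 322 outlier spots were left out and the spots of a probe averaged. Probes entered the fit if the scanner called them well above background on 3 or more of 6 arrays (27415 probes), and the tested probe of highest mean stood for its gene (17784 genes). The contrast of imiquimod with vehicle was fitted by limma (version 3.58.1, R 4.3.3), two-sided, with Benjamini-Hochberg adjustment over all genes. No covariate was used. With 3 arrays a group the precision is limited. On simulated data of 17784 genes, 100 were changed by 1 (log2), 100 by 2, and 17584 were left unchanged. There, 40% of genes changed by 1 and 79% of those changed by 2 were recovered. In the arrays 4197 genes passed (23.6%), and the Benjamini-Hochberg cutoff depends on how many genes differ. Recovery with as many genes changed as passed in the arrays was not tested. A fold is given as a bound where no array of one group had the probe above background: the bright group's mean against, per array, the higher of the probe's own signal and the lowest signal above background.

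The listed genes and the other gene lists were chosen with earlier results of these data known. All listed genes are named; of the other lists, up to 3 genes that rose and 3 that fell by smallest p, plus genes in counts of 5 or fewer. Promoters are RefSeq's on GRCm38.p6, and probe positions those of the files on mm9; no exon annotation of mm9 was used here. The order of arrays within groups, the counts of the other lists under each alternative, the bounds and the 2-fold cutoff for printed promoters were added after seeing the data. Alternatives covered normalization, background correction, the filter, the choice of probe, slide and replicate blocks, the value table, the attachment of files to samples, variance moderation and leaving out each array.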

Additional observations from a re-analysis of the deposited data

How the results depend on the processing

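Of the 9 listed genes that passed as lower, quantile normalization, normexp correction, the stricter filter, mean probes, moderated variance with a trend and the value table left the count at 9 or 10. With the slide as a block 2 passed (0 Pex genes and 2 enzymes), with 541 of all genes higher and 519 lower, 0 and 5 other peroxisome genes and 0 mitochondrial genes; within the shared slide the count was 0 for each of these lists, with 7 of all genes higher and 1 lower. Replicate numbers did not pair the samples (correlations of deviations -0.088, 0.068 and 0.085); with a replicate block 6 of the listed genes passed (3 Pex genes, 3 enzymes), 5 other peroxisome genes and 1 mitochondrial gene fell, and all genes gave 1165 higher and 1043 lower. Without a filter on dim probes 7 other peroxisome genes and 1 mitochondrial gene fell. With the files as attached every sign turned: 9 listed genes higher and 0 lower (4 and 5 by class), 11 other peroxisome genes higher and 3 lower, 3 mitochondrial genes higher and 0 lower, and medians of 0.40, 0.28 (Pex) and 0.47 (enzymes); single genes turn in the same way and are not listed.

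Leaving out each array gave 4 to 15 listed genes lower and 0 to 1 higher, 2 to 6 Pex genes lower, 2 to 9 enzymes lower and 0 to 1 higher, 9 being the count without vehicle 2. It gave 6 to 17 other peroxisome genes lower and 0 to 5 higher, 0 to 3 mitochondrial genes lower, 944 to 2515 of all genes higher and 745 to 2219 lower, and a Pex median of -0.40 to -0.19. The cause of these changes was not tested, beyond fewer arrays in the fit. Genes near 0 turned sign: Pex2 was 0.0033 with quantile normalization, 0.25 with mean probes, 0.0029 in the value table and -0.062 to 0.0078 on leaving out an array; Pex10 was -0.15 with the slide block and within the slide. Leaving out an array gave -0.087 to 0.13 for Pex26, -0.35 to 0.089 for Abcd2 and -0.15 to 0.23 for Abcd4. Acaa1a was -0.17 with quantile normalization and in the value table, -0.057 with normexp, -0.024 with the slide block and within the slide, and -0.074 to 0.098 on leaving out an array. None of these 6 genes passed in the fit reported.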
